A study of Mus musculus with 24 samples.

Results

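The 10 genes described here are genes of the vessel lining, taken from the deposited expression tables of mouse hearts by matching Ensembl identifiers to gene symbols. Of these, 8 are general endothelial markers (*Pecam1*, *Cdh5*, *Tie1*, *Tek*, *Kdr*, *Flt1*, *Vwf* and *Aplnr*) and 2 are genes of sprouting tip cells and vessel growth (*Apln* and *Esm1*). All 10 were among the 15667 genes listed for uninjected hearts and the 15327 genes listed for injected hearts. RNA from the heart apex by the labels, or from the ventricles by the study's methods, was sequenced at postnatal day 7.5 in 24 libraries, 4 in each of 6 groups. Uninjected hearts were WT or Xinβ KO. Injected hearts were WT or Xinβ KO and had received, under the skin at postnatal day 1, AAV9 that carried either GFP or FLAG-tagged active human YAP (S127A), and these groups are called WT/GFP, Xinβ KO/GFP, WT/YAP and Xinβ KO/YAP. The injected WT pups were littermates of the knockouts. The Xinβ KO allele is a germline deletion, present in every cell type, in which a LacZ and neomycin cassette replaces parts of exons 6 and 7 of *Xirp2* on a C57BL6 background. Both vectors used the cardiac troponin T promoter, which is active in cardiomyocytes and not in endothelial cells. By the study's methods, males and females were equally mixed in each RNA-seq group, and the labels give no sex. The labels do not say how many mice went into a library, so p-values measure the spread between libraries.

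Endothelial cells line the endocardium, the coronary vessels and the capillaries, and in the first postnatal week the capillary bed of the mouse heart grows quickly together with the muscle. Sprouting is led by tip cells, which respond to VEGF through the receptor encoded by *Kdr*, while *Flt1* encodes a receptor that binds VEGF tightly and limits its action. Apelin, the peptide encoded by *Apln*, is made by sprouting endothelium and acts on the receptor encoded by *Aplnr*, which is rich in venous and sprouting endothelium. YAP, held inactive by the Hippo kinases, drives growth genes through TEAD factors.

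The values are CPM, the reads of a gene scaled to library size, as deposited. The uninjected libraries held 20490875 to 31154155 reads on genes and the injected libraries 15015038 to 19444404. The 2 tables were scaled separately, and no test was run across them. *Xirp2* was at 106 to 168 CPM in WT and 0.291 to 0.692 CPM in Xinβ KO hearts, and between 0 and 0.972 CPM in the 8 injected Xinβ KO libraries. Mouse *Yap1* was at 87.2 ± 4.58 CPM in Xinβ KO/YAP and 89.0 ± 5.07 CPM in Xinβ KO/GFP hearts (SD, n = 4), and reads of the human transgene are not in the tables. Over all genes, replicate 1 of the uninjected Xinβ KO hearts was farthest from the other 3 (chi-square per degree of freedom of 106 to 121, against 17.7 to 43.5 among those), and without it 1761 genes were called in place of 1044. Replicate 4 stood apart in other ways. Its summed level of 12 cell division genes was 732 CPM against 101 to 176 CPM, while WT hearts had 542 to 717 CPM. The Y-linked *Ddx3y* was at 3.68 CPM in that library and at 21.7 to 56.2 CPM in the other uninjected Xinβ KO libraries. Scaling to the library total in place of the authors' scaling put the median log2 fold change of all tested genes at -0.12, -0.11 and 0.13, from 0.00, -0.01 and 0.01, in the first 3 comparisons below. It changed the split of called genes from 504 higher and 540 lower to 353 and 1241 in uninjected Xinβ KO against WT hearts, from 939 and 1054 to 590 and 1759 in Xinβ KO/GFP against WT/GFP, and from 1146 and 1010 to 2156 and 591 in Xinβ KO/YAP against Xinβ KO/GFP.

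The 250 bases before the transcription start were compared for the members with a RefSeq promoter entry, which were 6 of the 10. Those of *Kdr*, *Flt1* and *Apln* are shown, because *Kdr* and *Flt1* are receptors for the same ligand that gave different results, and *Apln* had the widest range of the 10 genes on the log2 scale. All 3 genes lie on the minus strand of GRCm38.p6, and the windows are chr5:75978456-75978705, chr5:147726012-147726261 and chrX:48034854-48035103. Capitals mark matches, on either strand, to the core of hypoxia response elements (GCGTG or ACGTG), to an ETS site (CAGGAA), to a GATA site (AGATAA) or to the TEAD site (CATTCC).
Kdr: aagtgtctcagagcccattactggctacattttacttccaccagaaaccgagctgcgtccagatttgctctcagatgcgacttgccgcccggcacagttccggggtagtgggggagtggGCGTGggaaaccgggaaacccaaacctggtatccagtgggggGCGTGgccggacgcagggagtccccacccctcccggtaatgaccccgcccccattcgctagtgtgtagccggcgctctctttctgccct
Flt1: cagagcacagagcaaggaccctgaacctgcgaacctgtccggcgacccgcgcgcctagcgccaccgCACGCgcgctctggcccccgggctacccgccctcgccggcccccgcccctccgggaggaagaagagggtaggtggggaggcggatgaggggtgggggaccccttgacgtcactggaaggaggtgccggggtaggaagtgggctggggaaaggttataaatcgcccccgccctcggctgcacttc
Apln: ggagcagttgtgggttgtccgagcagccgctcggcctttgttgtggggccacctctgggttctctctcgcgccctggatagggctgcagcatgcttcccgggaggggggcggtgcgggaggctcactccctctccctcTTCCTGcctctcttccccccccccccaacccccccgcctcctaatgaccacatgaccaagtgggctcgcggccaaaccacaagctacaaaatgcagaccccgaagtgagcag
The *Kdr* window holds 2 matches to GCGTG, *Flt1* holds 1 as its reverse complement CACGC, and *Apln* holds 1 match to CAGGAA, also as its reverse complement. Of the windows not shown, *Tek* holds 2 matches to CAGGAA, *Tie1* holds 1, and *Esm1* holds 2 together with 1 match to GCGTG. None of the 6 windows contains the TEAD, GATA or ACGTG letters. Over all 32851 promoter windows of this length, 28.2% contain GCGTG, 16.6% ACGTG, 25.7% CAGGAA, 9.99% AGATAA and 12.6% CATTCC, so the matches in these promoters are common ones. GCGTG and ACGTG share their last letters but no match is counted under both.

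Per kilobase of exon, *Cdh5* was the most abundant of the 10 genes in every group, at 135 ± 7.82 CPM per kb in WT hearts (SD, n = 4), above every library's value for the next gene. In the same hearts *Aplnr* (45.8 ± 3.70), *Tie1* (44.5 ± 3.59) and *Pecam1* (44.1 ± 1.07 CPM per kb) followed with overlapping values. Then came *Kdr* (36.0 ± 0.869), *Tek* (22.8 ± 1.08) and *Apln* (16.9 ± 4.19), the last pair again overlapping. *Flt1* (8.18 ± 0.286), *Vwf* (3.97 ± 0.352) and *Esm1* (0.700 ± 0.0912 CPM per kb) closed the order without overlap. In Xinβ KO hearts *Aplnr*, at 19.9 ± 2.95 CPM per kb, ranked below *Kdr* and overlapped with *Tek*, and *Vwf*, at 9.50 ± 2.95, overlapped with *Flt1*. In the injected hearts *Vwf* overlapped with *Flt1* in Xinβ KO/GFP alone. In Xinβ KO/YAP hearts *Pecam1*, *Tie1*, *Aplnr* and *Kdr* overlapped from place to place, and *Apln*, *Tek*, *Flt1*, *Vwf* and *Esm1* came last in the same order as in WT/GFP hearts.

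Comparisons used limma on log2(CPM + 1), with Benjamini-Hochberg adjustment over all tested genes and a threshold of 0.05, and genes under it are called. Because 1 is added to every value, the fold changes of low genes are understated. In uninjected hearts, 4 of the 10 genes were called, *Vwf* higher and *Aplnr*, *Kdr* and *Esm1* lower in Xinβ KO, where 6.69% of all 15598 tested genes were called, 3.23% higher and 3.46% lower. For 6 of the 10 no library of one genotype reached into the range of the other, as for 16.4% of all tested genes. *Esm1* is in both counts but was tested only because the WT libraries, where it is high, were above 1 CPM, so its call is no result. Of the other 9 genes 3 were called and 5 did not overlap. In Xinβ KO/GFP against WT/GFP 5 were called, *Vwf* higher and *Aplnr*, *Kdr*, *Tek* and *Cdh5* lower, where 13.7% of 14597 tested genes were called, 6.43% higher and 7.22% lower, and 6 did not overlap, against 15.3%. In Xinβ KO/YAP against Xinβ KO/GFP 4 were called, *Aplnr*, *Kdr* and *Cdh5* higher and *Vwf* lower, where 14.8% of genes were called, 7.85% higher and 6.92% lower, and 5 did not overlap, against 17.5%. Since the last pair of comparisons use the same Xinβ KO/GFP libraries, opposite signs in them are not separate evidence. The median log2 fold change of the 10 genes was -0.37, -0.24 and 0.28 in the 3 comparisons, beside 0.00, -0.01 and 0.01 over all tested genes. The first of these medians includes *Esm1*, and that of the 8 general markers in uninjected hearts was -0.22. *Pecam1*, *Flt1*, *Tie1* and *Apln* were called in none of the 3.

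**Figure D1:**
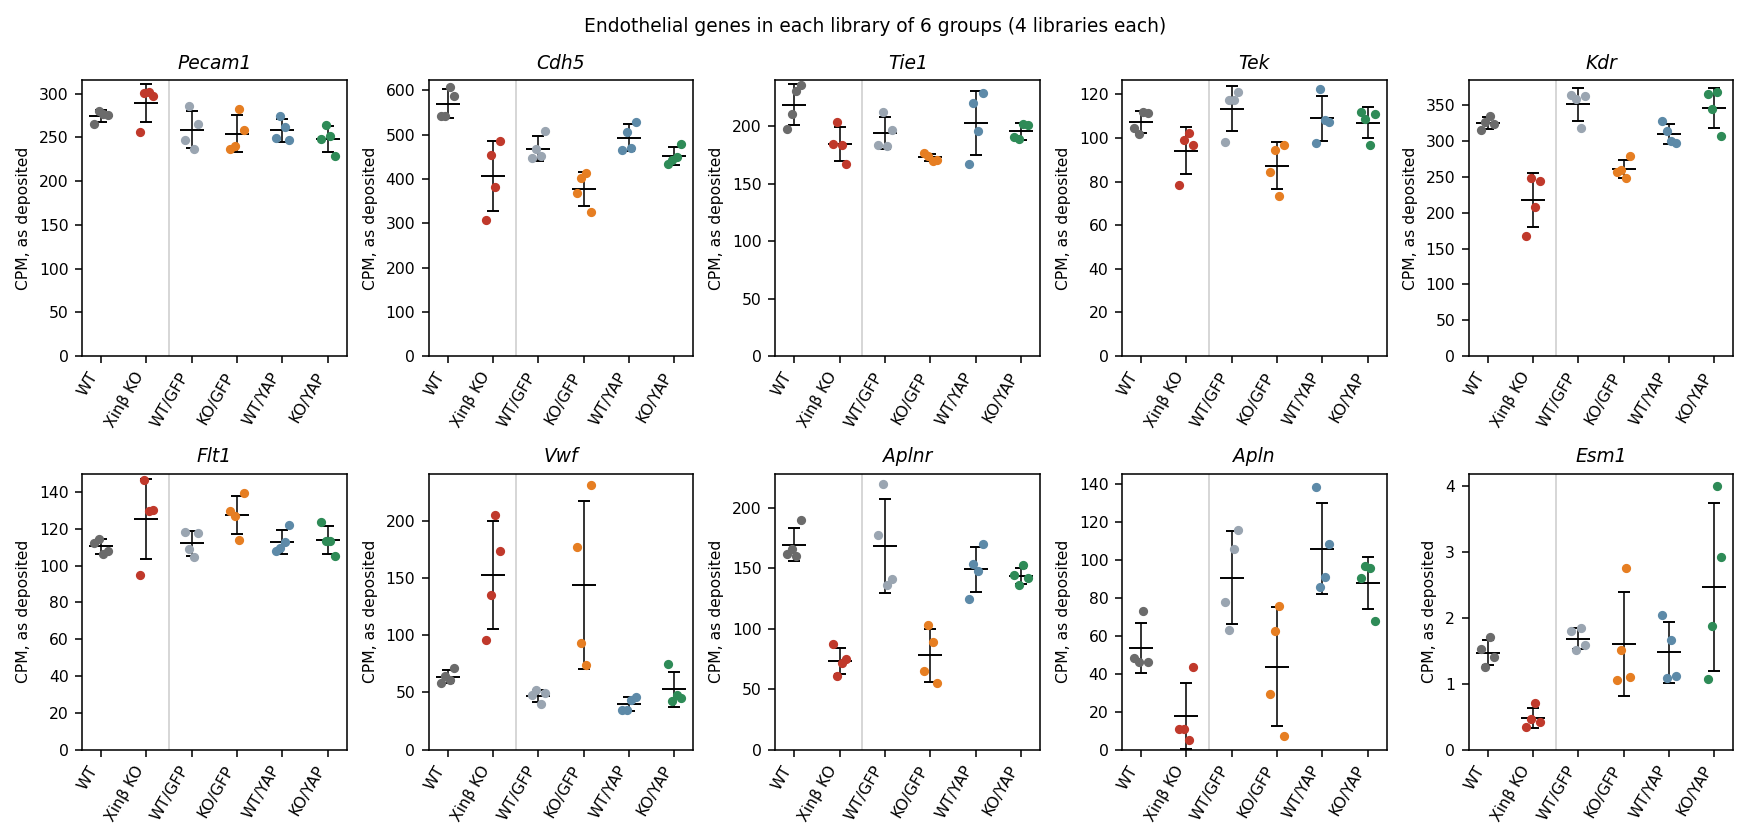
Level of each of the 10 genes in CPM as deposited (linear axis from 0) in the 24 libraries, with 1 point per library and a bar for the mean with its SD (n = 4 per group). The grey line separates the uninjected and injected tables, which were scaled separately. *Pecam1* stays level, *Aplnr* and *Kdr* are lower and *Vwf* higher in Xinβ KO and KO/GFP hearts, and *Apln* spreads from 7.05 to 75.7 CPM among the KO/GFP hearts.

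Of the junction genes, *Cdh5* was called in both comparisons of Xinβ KO/GFP and *Pecam1* in none, and the difference between them was not tested. *Pecam1* (ENSMUSG00000020717, chromosome 11 from 106654217 to 106750628 of GRCm38), an adhesion molecule found on all endothelium and the usual measure of endothelial content, measured 265, 280.2, 277 and 276 CPM in WT hearts, in the order of replicates 1 to 4 used throughout, and 256, 301, 302 and 298 CPM in Xinβ KO hearts. The ranges overlapped, and the log2 fold change was 0.07 (95% confidence interval -0.12 to 0.27, adjusted p = 0.68 from limma). Over the 4 injected groups it lay between 229 and 286 CPM, with a log2 fold change of -0.02 (-0.20 to 0.15) in Xinβ KO/GFP against WT/GFP and -0.03 (-0.20 to 0.14) in Xinβ KO/YAP against Xinβ KO/GFP. Its sign, never its call, depended on the scaling, and became -0.07 in the uninjected hearts and 0.10 in the last comparison when values were scaled to the library total.

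*Cdh5* (ENSMUSG00000031871, chromosome 8 from 104101625 to 104144511) encodes VE-cadherin, the cadherin of endothelial junctions. It measured 541, 543, 608 and 586 CPM in WT and 308, 455, 382 and 485 CPM in Xinβ KO hearts, all 4 below the lowest WT value, with replicate 1 lowest. The difference missed the threshold (log2 fold change -0.50, standard error 0.14, adjusted p = 0.071 from limma). It was called by DESeq2, by edgeR's exact test, with quantile or library-total scaling, and without Xinβ KO replicate 1 (-0.38, adjusted p = 0.042 from limma) or replicate 4, with a range of 0.026 to 0.18 over the alternatives. In injected hearts *Cdh5* measured 446, 467, 451 and 508 CPM in WT/GFP, 367.8, 402.6, 413 and 326 in Xinβ KO/GFP, 466, 507, 469 and 529 in WT/YAP and 433, 443, 449 and 479 CPM in Xinβ KO/YAP. The Xinβ KO/GFP hearts were below all others. It fell in Xinβ KO/GFP against WT/GFP (log2 fold change -0.31, standard error 0.08, adjusted p = 0.019) and rose in Xinβ KO/YAP against Xinβ KO/GFP (log2 fold change 0.26, standard error 0.08, adjusted p = 0.044, both from limma). The second call was lost when any 1 of the 8 libraries other than Xinβ KO/GFP replicate 2 or 3 was left out (adjusted p = 0.066 to 0.13 from limma), and in a fit with the 8 libraries alone (adjusted p = 0.13). Neither did it hold with edgeR's quasi-likelihood (adjusted p = 0.059) or exact test (adjusted p = 0.23), without the trend, with the replicate block or with *Ddx3y* as a covariate (adjusted p = 0.057 to 0.076). The first was lost without WT/GFP replicate 4 or Xinβ KO/GFP replicate 1 or 4 (adjusted p = 0.056 to 0.069), with edgeR's exact test (adjusted p = 0.14) and with only the groups compared (adjusted p = 0.096). In a bulk sample such as these, fewer endothelial cells and less of a transcript in each cell cannot be told apart.

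The angiopoietin receptor *Tek* (ENSMUSG00000006386, chromosome 4 from 94739289 to 94874976), which keeps vessels stable, measured 104, 102, 112 and 111 CPM in WT and 78.4, 99.2, 102 and 96.6 CPM in Xinβ KO hearts. The groups overlapped and the difference was not called (log2 fold change -0.19, standard error 0.11, adjusted p = 0.33 from limma). It measured 98.0, 118, 117 and 121 CPM in WT/GFP and 84.6, 94.5, 73.3 and 96.8 CPM in Xinβ KO/GFP hearts, all of them lower, and fell by this test (log2 fold change -0.38, standard error 0.10, adjusted p = 0.02). This call was lost without WT/GFP replicate 2 or 4 or Xinβ KO/GFP replicate 1 or 3 (adjusted p = 0.053 to 0.058), and with edgeR's exact test or only the groups compared (adjusted p = 0.083 and 0.082). In Xinβ KO/YAP hearts it measured 112, 108, 96.9 and 111 CPM, which did not overlap with Xinβ KO/GFP but missed the threshold (log2 fold change 0.30, standard error 0.10, adjusted p = 0.058 from limma). Here *Tek* was called with library-total scaling (0.43, adjusted p = 0.008) and in 2 of 8 fits with a library left out (lowest adjusted p = 0.039, both from limma). Its orphan relative *Tie1* (ENSMUSG00000033191, chromosome 4 from 118471191 to 118490061), which modulates the same pathway, was called nowhere, other than in Xinβ KO/YAP against Xinβ KO/GFP with library-total scaling (adjusted p = 0.038 from limma). It was at 197 to 235.4 CPM in WT and 167 to 203 CPM in Xinβ KO hearts (a log2 difference of -0.24, adjusted p = 0.18 from limma). Its 4 Xinβ KO/GFP values, 170.0 to 177 CPM, were the tightest of any group and lay under all WT/GFP (182 to 212 CPM) and all Xinβ KO/YAP values (188 to 202 CPM), with differences of -0.16, adjusted p = 0.25, and of 0.18, adjusted p = 0.2 by limma.

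The VEGF receptors *Kdr* and *Flt1* gave different results. *Kdr* (ENSMUSG00000062960, chromosome 5 from 75932827 to 75978458) measured 316, 326, 335 and 324 CPM in WT hearts. In Xinβ KO hearts it measured 168, 249, 208 and 245 CPM, 1.495-fold lower by the means, with no overlap and a wider spread. It fell in this comparison (log2 fold change -0.60, standard error 0.13, adjusted p = 0.03 from limma), a call that was lost without any 1 WT library or Xinβ KO replicate 3 (adjusted p = 0.078 to 0.095) and with the replicate block (adjusted p = 0.079). The log2 fold change ran from -0.67 to -0.48 with a library left out and from -0.73 to -0.57 under the other settings. In injected hearts *Kdr* measured 365, 359, 317 and 363.3 CPM in WT/GFP, 257, 260.1, 249 and 278 in Xinβ KO/GFP, 328, 314, 299.6 and 297 in WT/YAP and 366, 344, 367.6 and 307 CPM in Xinβ KO/YAP. All Xinβ KO/GFP values were below all others. It fell in Xinβ KO/GFP against WT/GFP (log2 fold change -0.43, standard error 0.08, adjusted p = 0.002) and rose in Xinβ KO/YAP against Xinβ KO/GFP (log2 fold change 0.40, standard error 0.08, adjusted p = 0.0026, both from limma), and both calls held with each library left out.

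*Flt1* (ENSMUSG00000029648, chromosome 5 from 147561604 to 147726011) measured 113, 115, 107 and 108 CPM in WT and 94.8, 147, 130.0 and 130.4 CPM in Xinβ KO hearts, where replicate 1 lay below and the other 3 above all WT values (log2 fold change 0.17, adjusted p = 0.53 from limma). Without that replicate the log2 fold change was 0.29 and called (adjusted p = 0.034 from limma), with a range of 0.034 to 0.93 over all alternatives. It measured 118, 109, 104 and 118 CPM in WT/GFP and 130.0, 127, 114 and 139 CPM in Xinβ KO/GFP hearts (log2 fold change 0.18, standard error 0.08, adjusted p = 0.15), and at 105 to 124 CPM in Xinβ KO/YAP hearts (log2 fold change -0.16, standard error 0.08, adjusted p = 0.19, both from limma). Its point estimates thus had the opposite sign to those of *Kdr* in all 3 comparisons and none was called. Measured against *Pecam1* in the same library, as a difference of log2(CPM + 1), *Kdr* was at 0.22 to 0.27 in WT and -0.61 to -0.27 in Xinβ KO hearts. The difference was 0.33 to 0.56 in WT/GFP, -0.18 to 0.12 in Xinβ KO/GFP and 0.38 to 0.56 in Xinβ KO/YAP hearts, so the *Kdr* transcript was lower relative to *Pecam1* in every library of both knockout groups without YAP.

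*Vwf* (ENSMUSG00000001930, chromosome 6 from 125546774 to 125686679), the clotting factor stored by endothelial cells and platelets, was the member that rose. It measured 58.4, 64.8, 60.6 and 71.2 CPM in WT and 96.2, 135, 205 and 174 CPM in Xinβ KO hearts, 2.39-fold higher by the means and without overlap (log2 fold change 1.19, standard error 0.21, adjusted p = 0.013 from limma). Without WT replicate 1 the adjusted p was 0.0505 (limma), and with each other library left out it stayed under 0.05. In injected hearts it measured 48.0, 51.8, 39.7 and 49.3 CPM in WT/GFP, 178, 93.2, 74.2 and 232 in Xinβ KO/GFP, 34.4, 34.7, 43.2 and 46.3 in WT/YAP and 75.2, 42.2, 47.9 and 45.2 CPM in Xinβ KO/YAP. The Xinβ KO/GFP hearts spread over a 3.12-fold range, with replicates 1 and 4 high and 2 and 3 lower. *Vwf* rose in Xinβ KO/GFP against WT/GFP (log2 fold change 1.45, standard error 0.28, adjusted p = 0.0027) and fell in Xinβ KO/YAP against Xinβ KO/GFP (log2 fold change -1.33, standard error 0.28, adjusted p = 0.0044, both from limma), although Xinβ KO/YAP replicate 1 was just above the lowest Xinβ KO/GFP heart. Both calls held with each library left out.

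Because platelets also carry *Vwf*, a list of 8 megakaryocyte and platelet markers was read beside it. Of the list, *Gp9*, *Ppbp* and *Treml1* did not pass the filter in either table, and of the 3 tested in uninjected hearts 0 were called by limma, edgeR or DESeq2, with 1 at an unadjusted p under 0.05 in limma and 2 in the others. Of the 4 tested in injected hearts 1 was called in each comparison of Xinβ KO/GFP. The medians of the tested genes were 0.19, -0.07 and -0.36 in the 3 comparisons. The summed list was at 16.6 to 21.5 CPM in WT and 15.2 to 37.1 CPM in Xinβ KO hearts, and at 20.3 to 29.7 CPM in WT/GFP and 25.1 to 45.4 CPM in Xinβ KO/GFP hearts. The called gene was the integrin *Itgb3*, which is not confined to platelets, at 8.19 to 11.1 CPM in WT/GFP and 26.9, 10.9, 15.7 and 31.7 CPM in Xinβ KO/GFP hearts (a log2 difference of 0.94, adjusted p = 0.014 from limma). The other tested genes were not called. In Xinβ KO/GFP against WT/GFP the log2 differences were -0.07 for *Itga2b*, the platelet integrin chain, -0.07 for *Gp1bb*, part of the platelet receptor for von Willebrand factor, and -0.50, adjusted p = 0.084 (limma), for the chemokine *Pf4*. In uninjected hearts they were 0.19 for *Itga2b*, 0.66 for *Itgb3* and -0.49 for *Pf4*. Tissue macrophages also express *Pf4*, and 7 of 9 tested macrophage markers fell in Xinβ KO/GFP, with a median of -1.23. The list's sum, over the 3 listed genes present in uninjected and 5 in injected hearts, was above all WT libraries in Xinβ KO replicates 2 and 3. In Xinβ KO replicate 4, with *Vwf* at 174 CPM, it was 21.2 CPM and within the WT range. It was above all WT/GFP libraries in Xinβ KO/GFP replicates 1 and 4, where *Vwf* was high. There *Itgb3* alone gave 26.9 and 31.7 of the 37.6 and 45.4 CPM. Endocardium and veins are other places of high *Vwf*. Of 7 endocardial genes 5 were tested, with 2 higher in Xinβ KO, 2 higher and 1 lower in Xinβ KO/GFP, 1 higher and 2 lower in Xinβ KO/YAP against Xinβ KO/GFP, and medians of 0.10, 0.03 and 0.03. The natriuretic peptide receptor *Npr3* rose where *Vwf* did, from 18.1 ± 1.17 CPM in WT to 49.5 ± 14.4 CPM in Xinβ KO hearts (a log2 difference of 1.36, adjusted p = 0.0049). *Npr3* measured 76.9, 30.5, 23.0 and 106 CPM in the Xinβ KO/GFP libraries, with replicates 1 and 4 high as for *Vwf*, and at 14.8 to 21.5 CPM in WT/GFP and 13.8 to 21.2 CPM in Xinβ KO/YAP hearts. *Tmem108* rose in both knockout comparisons (1.02, adjusted p = 0.003, and 0.94, adjusted p = 0.0022 from limma) and *Postn*, which fibroblasts also make, fell in the injected one (-0.97, adjusted p = 0.015). *Nfatc1* and *Cgnl1* were not called in the 3 comparisons. The endocardial sum, with *Postn* at a mean of 736 CPM in WT/GFP, was at 968 to 1072 CPM in WT and 523 to 997 CPM in Xinβ KO hearts. In WT/GFP it was at 780 to 946 CPM and in Xinβ KO/GFP at 458 to 711 CPM. The part of endocardium or platelets in the *Vwf* result was not tested.

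The apelin receptor *Aplnr* (ENSMUSG00000044338, chromosome 2 from 85136225 to 85139923) had the smallest adjusted p of the 10 genes in both knockout comparisons. It measured 162, 166, 161 and 189.7 CPM in WT and 87.1, 60.5, 71.9 and 74.6 CPM in Xinβ KO hearts, 2.304-fold lower by the means. It fell without overlap (log2 fold change -1.20, standard error 0.12, adjusted p = 0.0015 from limma). In injected hearts *Aplnr* measured 178, 220.2, 136 and 141 CPM in WT/GFP, 65.2, 103, 88.9 and 55.2 in Xinβ KO/GFP, 125, 154, 148 and 170.2 in WT/YAP and 145, 136, 153 and 142 CPM in Xinβ KO/YAP. All Xinβ KO/GFP hearts were below all other injected hearts. It fell in Xinβ KO/GFP against WT/GFP (log2 fold change -1.12, standard error 0.18, adjusted p = 7.7e-04) and rose in Xinβ KO/YAP against Xinβ KO/GFP (log2 fold change 0.91, standard error 0.18, adjusted p = 0.0028, both from limma). All 3 calls held with each library left out and under every other setting tried. Relative to *Pecam1* in the same library, *Aplnr* was at -0.78 to -0.54 in WT, -2.29 to -1.55 in Xinβ KO, -0.90 to -0.37 in WT/GFP, -2.21 to -1.21 in Xinβ KO/GFP and -0.95 to -0.68 in Xinβ KO/YAP hearts, as differences of log2(CPM + 1). *Vwf* and *Aplnr* went opposite ways, and the ratio of their CPM values was 0.36 to 0.39 in WT and 1.10 to 2.85 in Xinβ KO hearts, 0.24 to 0.35 in WT/GFP, 0.84 to 4.19 in Xinβ KO/GFP, 0.23 to 0.29 in WT/YAP and 0.31 to 0.52 in Xinβ KO/YAP hearts. Being ratios within a library, these values do not depend on the scaling.

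**Figure D2:**
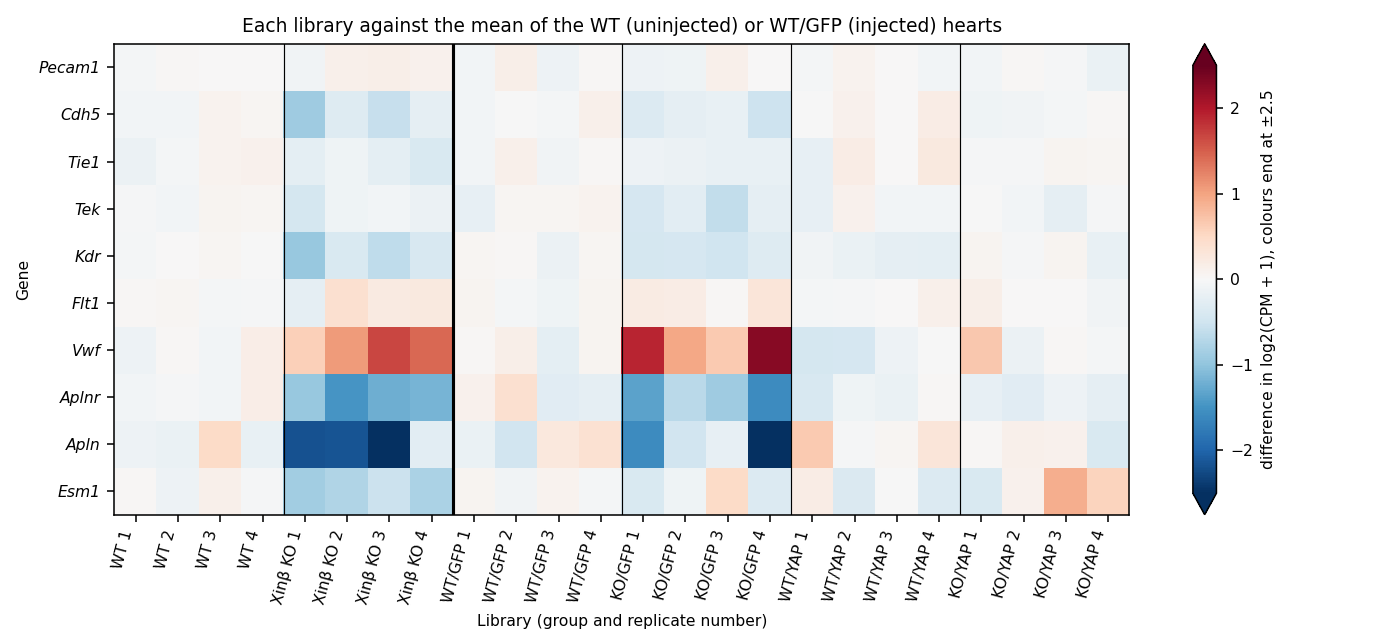
Difference of log2(CPM + 1) of each gene (rows) in each library (columns) from the mean of the WT hearts for uninjected and of the WT/GFP hearts for injected libraries, red higher and blue lower. Thin lines separate groups, and the thick line separates the tables. In the Xinβ KO and KO/GFP libraries *Vwf* is red and *Aplnr* blue, and *Apln* is close to the WT mean in Xinβ KO replicate 4 and KO/GFP replicate 3 and deep blue in KO/GFP replicate 4.

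The ligand gene *Apln* (ENSMUSG00000037010, chromosome X from 48025146 to 48034853) was the most variable member on the log2 scale. It measured 47.9, 46.3, 73.0 and 45.9 CPM in WT and 10.8, 10.9, 5.24 and 43.6 CPM in Xinβ KO hearts. The 4 knockout values were all below the WT values, but replicate 4 was close to them, and the difference missed the threshold (log2 fold change -1.92, standard error 0.51, adjusted p = 0.055 from limma). Without replicate 4 it was called (-2.48, adjusted p = 9.0e-04 from limma). It was also called with *Ddx3y* as a covariate (-2.61, adjusted p = 9.3e-04), with library-total scaling (adjusted p = 0.037) and by DESeq2 (adjusted p = 0.027), with a range of 9.0e-04 to 0.15 over the alternatives. In injected hearts *Apln* measured 77.9, 62.9, 106 and 116 CPM in WT/GFP, 29.0, 62.6, 75.7 and 7.05 in Xinβ KO/GFP, 138, 85.6, 90.7 and 108 in WT/YAP and 90.4, 96.8, 95.5 and 67.6 CPM in Xinβ KO/YAP. Xinβ KO/GFP replicate 3 lay within the WT/GFP and Xinβ KO/YAP ranges, replicate 2 just below both, and replicates 1 and 4 far below. Neither Xinβ KO/GFP against WT/GFP (log2 fold change -1.43, standard error 0.48, adjusted p = 0.058) nor Xinβ KO/YAP against Xinβ KO/GFP (log2 fold change 1.41, standard error 0.48, adjusted p = 0.059, both from limma) was called. Library-total scaling called both (adjusted p = 0.033 and 0.03). Without Xinβ KO/GFP replicate 2 or 3 both were called, at log2 fold changes of -1.75 and -1.84 for the first and 1.73 and 1.82 for the second, while without replicate 4 the first was -0.76 and the second 0.73.

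The libraries in which *Apln* was low were also low in cell division genes. The sum of 12 such genes (genes of the mitotic cycle such as *Top2a*) was 119, 176, 101 and 732 CPM in the uninjected Xinβ KO libraries and 188, 462, 339 and 93.0 CPM in the Xinβ KO/GFP libraries, in the order of replicates, against 530.3 to 666 CPM in WT/GFP and 473 to 536 CPM in Xinβ KO/YAP hearts. The 4 libraries with the least *Apln*, Xinβ KO replicates 1, 2 and 3 and Xinβ KO/GFP replicate 4, were also the 4 with the least of these genes. Of the 12 genes, 0 were called in uninjected hearts by limma, edgeR or DESeq2, and 11 had an unadjusted p under 0.05 in limma. In injected hearts 11 fell in Xinβ KO/GFP against WT/GFP and 7 rose in Xinβ KO/YAP against Xinβ KO/GFP (limma), with medians of -1.45, -1.25 and 1.08 in the 3 comparisons. *Top2a* (-1.51 and 1.35), *Ccnb1* (-1.60 and 1.39), *Kif11* (-1.42 and 1.22), *Ccna2* (-1.38 and 1.13) and *Birc5* (-1.21 and 1.05) were called in both injected comparisons. Their part in the *Apln* result was not tested. By the size of the difference between profiles, the 3 genes nearest to *Apln* among 13733 genes tested in both tables were *Pclaf*, *Espl1* and *Top2a*. Their log2(CPM + 1) values, centred within each table, differed from those of *Apln* over the 24 libraries by a root mean square of 0.316, 0.345 and 0.355, where the *Apln* profile itself had a root mean square of 1.05.

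*Esm1* (ENSMUSG00000042379, chromosome 13 from 113209659 to 113218098), which encodes endocan, a proteoglycan secreted by tip cells, was close to the detection limit. It measured 1.52, 1.25, 1.70 and 1.40 CPM in WT and 0.340, 0.461, 0.699 and 0.424 CPM in Xinβ KO hearts, from 34 to 42 and from 7 to 14 reads a library. The fitted difference (log2 fold change -0.74, standard error 0.12) is given as a description. *Esm1* passed the filter of 1 CPM in 4 of the 8 libraries only through the WT hearts, so a difference was built into its being tested and its call carries no weight. With 1 CPM required in every library it was not tested and 3 of the other 9 genes were called. In injected hearts it measured 1.79, 1.51, 1.85 and 1.59 CPM in WT/GFP, 1.06, 1.504, 2.75 and 1.10 in Xinβ KO/GFP, 2.05, 1.09, 1.66 and 1.12 in WT/YAP and 1.07, 1.87, 4.00 and 2.92 CPM in Xinβ KO/YAP. These overlapped throughout and nothing was called (-0.09, 95% confidence interval -0.61 to 0.43, in Xinβ KO/GFP against WT/GFP and 0.38, -0.14 to 0.90, in Xinβ KO/YAP against Xinβ KO/GFP). The lowest *Esm1* values among the Xinβ KO/GFP hearts were those of replicates 1 and 4, in which *Apln* was also lowest. Its nearest profiles were those of *Pxylp1*, *Eef1a2* and *Gm16793*, at root mean square differences of 0.265, 0.267 and 0.268 beside its own 0.369, which is a loose likeness at this depth. For the mean of the 8 general markers the nearest were *Eps15l1*, *Lima1* and *Man1b1* (0.0819, 0.0847 and 0.0902 beside its own 0.0991, among 13726 genes).

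**Figure D3:**
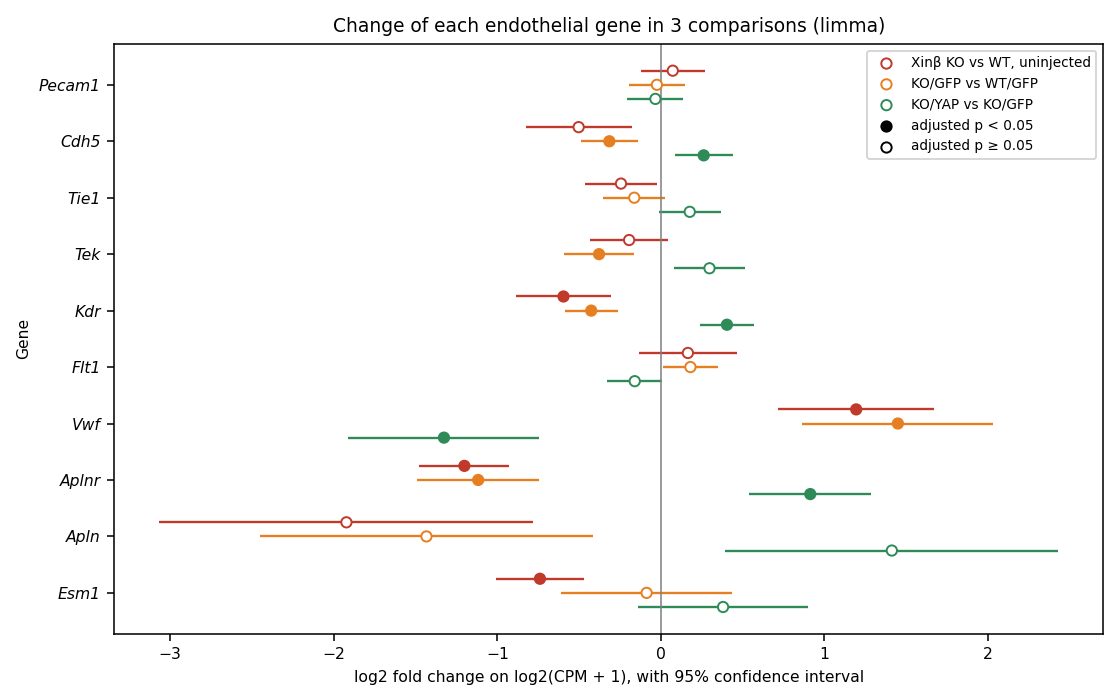
Log2 fold change of each gene on log2(CPM + 1), with its 95% confidence interval, in 3 comparisons by limma, filled where the adjusted p is under 0.05. *Vwf* lies right of 0 in both knockout comparisons and left of 0 with YAP, *Aplnr* and *Kdr* the other way round, *Pecam1* at 0, and *Apln* has the widest intervals.

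Active YAP in WT hearts moved none of the 10 genes past the threshold. In WT/YAP against WT/GFP 0 of the 10 and 0% of the 14597 tested genes were called by limma, and 0 of the 10 did not overlap, where 4.32% of all tested genes did not. At an unadjusted p under 0.05 there was 1 member, *Kdr* (log2 fold change -0.18, 95% confidence interval -0.34 to -0.02, adjusted p = 0.7), and DESeq2 and edgeR called 0 members. *Vwf* had -0.25 (-0.83 to 0.33), *Aplnr* -0.16 (-0.53 to 0.21) and *Apln* 0.24 (-0.78 to 1.25).

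Xinβ KO/YAP hearts were also compared with both WT groups. Against WT/GFP 0 of the 10 were called, where 0.0206% of tested genes were, and 0 of the 10 did not overlap, where 4.45% did. Against WT/YAP 0 were called, beside 0.0411% of tested genes, and 0 did not overlap, beside 9.23%. At an unadjusted p under 0.05 the count was 0 in both comparisons, and DESeq2 and edgeR called 0 members in both. The log2 fold changes against WT/GFP ran from -0.20 for *Aplnr* (95% confidence interval -0.58 to 0.17) to 0.29 for *Esm1* (-0.23 to 0.81). *Kdr*, at -0.02 (-0.18 to 0.14), and *Cdh5*, at -0.05 (-0.23 to 0.12), had narrow intervals, while those of *Vwf* (0.12, -0.46 to 0.71) and *Apln* (-0.02, -1.04 to 1.00) were wide enough to hold a change as large as that of *Kdr* in Xinβ KO/GFP. A difference that was not called is not shown to be absent.

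The effect of YAP was tested for a difference between genotypes by the interaction term of the same model. It was called for *Kdr* (0.58, standard error 0.11, adjusted p = 0.0051) and *Aplnr* (1.07, standard error 0.25, adjusted p = 0.018, limma), 2 of 10 genes beside 7.56% of all tested genes. The 1104 genes called were split into 554 higher and 550 lower, and into 884 and 345 with library-total scaling. With YAP, *Kdr* changed by -0.18 in WT and 0.40 in Xinβ KO hearts, and *Aplnr* by -0.16 and 0.91. For *Vwf* the interaction was -1.08 (adjusted p = 0.1) and for *Apln* 1.18 (adjusted p = 0.31), neither called by limma. The *Vwf* interaction was called by DESeq2 (adjusted p = 0.028) and without Xinβ KO/GFP replicate 3 (adjusted p = 0.025 from limma), with a range of 0.025 to 0.19 over the alternatives.

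Of the genes beside the 10, 17 lists were read, some of which share genes. No gene of these lists was called by limma in WT/YAP against WT/GFP or in Xinβ KO/YAP against either WT group, with 13, 13 and 16 of 161 at an unadjusted p under 0.05. Against WT/GFP, DESeq2 called 4 and edgeR's exact test 3, and against WT/YAP they called 1 and 7, most of them erythroid.

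Most other endothelial genes were not called. Of 28 further pan-endothelial genes, 4 rose and 1 fell in Xinβ KO against WT hearts, 2 rose and 2 fell in Xinβ KO/GFP against WT/GFP, and 3 rose and 4 fell in Xinβ KO/YAP against Xinβ KO/GFP, with medians of -0.10, -0.10 and 0.04. The called genes were thus 5, 4 and 7 of 28, beside 6.69%, 13.7% and 14.8% of all tested genes. *Plvap*, the protein of the diaphragms of fenestrated endothelium, followed *Vwf*. It measured 9.99, 12.6, 13.8 and 12.8 CPM in WT and 35.8, 23.6, 41.9 and 24.4 CPM in Xinβ KO hearts, and at 11.96 to 13.9 CPM in WT/GFP, 19.9 to 44.8 in Xinβ KO/GFP and 8.98 to 13.3 CPM in Xinβ KO/YAP hearts, without overlap of the knockouts without YAP with any other group (log2 fold changes 1.25, adjusted p = 0.0081, then 1.21, adjusted p = 8.7e-04, then -1.44, adjusted p = 1.9e-04, limma). The fatty acid carrier *Fabp4* also rose (0.86, adjusted p = 0.023, and 0.70, adjusted p = 0.0023) and fell with YAP (-0.79, adjusted p = 9.7e-04, limma). *Eng*, a coreceptor for TGF-β family ligands, rose in uninjected Xinβ KO hearts (0.38, adjusted p = 0.021 from limma). *Sox7*, a transcription factor of endothelium, followed *Aplnr* instead, from 56.7 ± 2.78 CPM in WT to 25.4 ± 5.35 CPM in Xinβ KO hearts (a log2 difference of -1.15, adjusted p = 0.0036) and from 35.5 ± 7.46 CPM in Xinβ KO/GFP to 62.9 ± 12.6 CPM in Xinβ KO/YAP (0.81, adjusted p = 0.0032, limma). *Nos3*, the endothelial nitric oxide synthase, was called nowhere (-0.08, -0.34 and 0.27).

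Of 16 other sprouting and tip-cell genes, 1 rose and 4 fell in Xinβ KO hearts, 2 rose and 5 fell in Xinβ KO/GFP hearts, and 4 rose and 2 fell in Xinβ KO/YAP against Xinβ KO/GFP, with medians of -0.36, -0.24 and 0.28. *Unc5b*, the netrin receptor of tip cells, measured 79.2, 71.2, 78.2 and 85.7 CPM in WT and 41.1, 43.7, 33.2 and 53.9 CPM in Xinβ KO hearts and fell (-0.87, adjusted p = 0.01 from limma). It was at 60.4 to 93.2 CPM in WT/GFP, 29.7 to 38.1 in Xinβ KO/GFP and 59.1 to 90.5 CPM in Xinβ KO/YAP hearts (-1.19, adjusted p = 7.4e-05, then 1.06, adjusted p = 1.6e-04, limma). The chemokine receptor *Cxcr4* fell from 9.57 ± 2.04 to 2.80 ± 0.502 CPM in uninjected hearts (-1.46, adjusted p = 0.0026) and in Xinβ KO/GFP (-1.14, adjusted p = 0.041), with 0.73, adjusted p = 0.18 in Xinβ KO/YAP against Xinβ KO/GFP (limma). *Dll4*, the Notch ligand of tip cells, fell in both knockout comparisons (-0.71, adjusted p = 0.0078, and -0.55, adjusted p = 0.037), and was at 0.32 with YAP (adjusted p = 0.21 from limma). *Adm*, a peptide of tip cells and of hypoxia, rose in Xinβ KO/GFP (0.62, adjusted p = 0.04) and fell with YAP (-0.91, adjusted p = 0.0047, limma). *Igfbp3*, a binding protein of insulin-like growth factors, rose in both knockout comparisons and fell with YAP (1.55, adjusted p = 0.012, then 1.73, adjusted p = 0.0097, then -1.63, adjusted p = 0.013, limma).

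Most ligands of endothelial receptors were not called. *Vegfa* was at 289 ± 6.88 CPM in WT and 272 ± 27.8 CPM in Xinβ KO hearts (a log2 difference of -0.09, adjusted p = 0.64), and had 0.27 and -0.19 in the injected comparisons. *Vegfb* (0.07, -0.08 and -0.03), *Vegfc* (-0.43, -0.30 and 0.43) and *Angpt2* (0.11, 0.09 and -0.03) were not called by limma either. *Angpt1*, the ligand that activates the *Tek* receptor, rose from 9.96, 10.9, 5.89 and 7.79 CPM in WT to 20.4, 34.7, 41.7 and 17.3 CPM in Xinβ KO hearts (1.56, adjusted p = 0.015 from limma). It measured 3.41, 5.47, 6.03 and 8.71 CPM in WT/GFP and 25.9, 10.1, 12.6 and 31.7 CPM in Xinβ KO/GFP hearts (1.52, adjusted p = 0.0058), and fell with YAP (-1.18, adjusted p = 0.024). *Pgf*, placental growth factor, a ligand of the *Flt1* receptor, rose in Xinβ KO/GFP (0.84, adjusted p = 0.0034) and fell with YAP (-1.19, adjusted p = 2.6e-04, limma). In all, of the 9 ligand genes tested, 1 rose in Xinβ KO hearts, 3 rose in Xinβ KO/GFP and 3 fell in Xinβ KO/YAP against Xinβ KO/GFP, with medians of 0.07, 0.27 and -0.31. Among 7 genes of coreceptors and the lymphatic VEGF receptor (medians -0.17, 0.11 and 0.00), *Nrp1* (-0.24, 0.06 and 0.00) and *Flt4* (-0.17, -0.18 and 0.01) were not called, while *Nrp2* fell in both knockout comparisons and rose with YAP (-0.88, adjusted p = 0.032, then -0.65, adjusted p = 0.0068, then 0.81, adjusted p = 0.0015, limma). *Itgb3*, described above, was the other gene called.

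Called Notch and arterial genes were mostly lower in the knockouts. Of 12 Notch genes, 3 fell and 0 rose in Xinβ KO hearts, 5 fell and 1 rose in Xinβ KO/GFP, and 4 rose and 1 fell in Xinβ KO/YAP against Xinβ KO/GFP, with medians of -0.32, -0.26 and 0.28 beside 0.00, -0.01 and 0.01 over all tested genes. The feedback gene *Nrarp* was at 23.5 to 25.6 CPM in WT and 8.66 to 16.1 CPM in Xinβ KO hearts (-1.07, adjusted p = 0.0094) and rose with YAP (1.01, adjusted p = 0.012, limma). The target *Heyl* fell in both knockout comparisons (-0.56, adjusted p = 0.015, and -0.88, adjusted p = 0.0014). *Hey2*, which cardiomyocytes also express, went the other way in injected hearts (1.39, adjusted p = 0.004, then -2.01, adjusted p = 2.9e-04, limma), and *Notch1* was not called (-0.25, -0.18 and 0.21). Of 10 arterial genes, which share *Dll4* and *Hey1* with the Notch list, 2 fell in Xinβ KO, 4 fell in Xinβ KO/GFP and 3 rose in Xinβ KO/YAP against Xinβ KO/GFP, with 0 called the other way by limma and medians of -0.30, -0.37 and 0.28. *Cxcl12*, the chemokine of arterial endothelium and also of mural and stromal cells, measured 159, 147, 159 and 155 CPM in WT and 70.5, 79.1, 87.0 and 84.9 CPM in Xinβ KO hearts (-0.94, adjusted p = 0.0015). It had -1.27, adjusted p = 4.0e-06 in Xinβ KO/GFP and 1.39, adjusted p = 1.3e-06 in Xinβ KO/YAP against Xinβ KO/GFP (limma). *Hey1* (-1.06, then 0.86) and the ephrin *Efnb2* (-0.44, then 0.43) were called in the injected comparisons alone. Of the 5 venous genes tested in uninjected and 4 in injected hearts (medians 0.11, -0.02 and -0.01), 1 rose and 1 fell in each of the 3 comparisons, *Nrp2* being the one that fell in the knockouts. *Vcam1* rose in Xinβ KO/GFP (0.46, adjusted p = 0.027). *Selp*, stored with *Vwf*, passed the filter in uninjected hearts alone and there only through the knockouts, and measured 0, 0.347, 0 and 0.783 CPM in WT and 1.36, 1.91, 7.39 and 2.31 CPM in Xinβ KO hearts, so that its being the venous gene counted as higher there is no result. Of 7 lymphatic genes 1 rose in each knockout comparison, *Mmrn1* in Xinβ KO (1.06, adjusted p = 0.012) and *Lyve1*, which macrophages also express, in Xinβ KO/GFP (1.22, adjusted p = 0.015), with medians of 0.20 and 0.28. In Xinβ KO/YAP against Xinβ KO/GFP the median was -0.01 and 0 were called by limma, with 1 at an unadjusted p under 0.05, while DESeq2 and edgeR's exact test called 1.

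**Figure D4:**
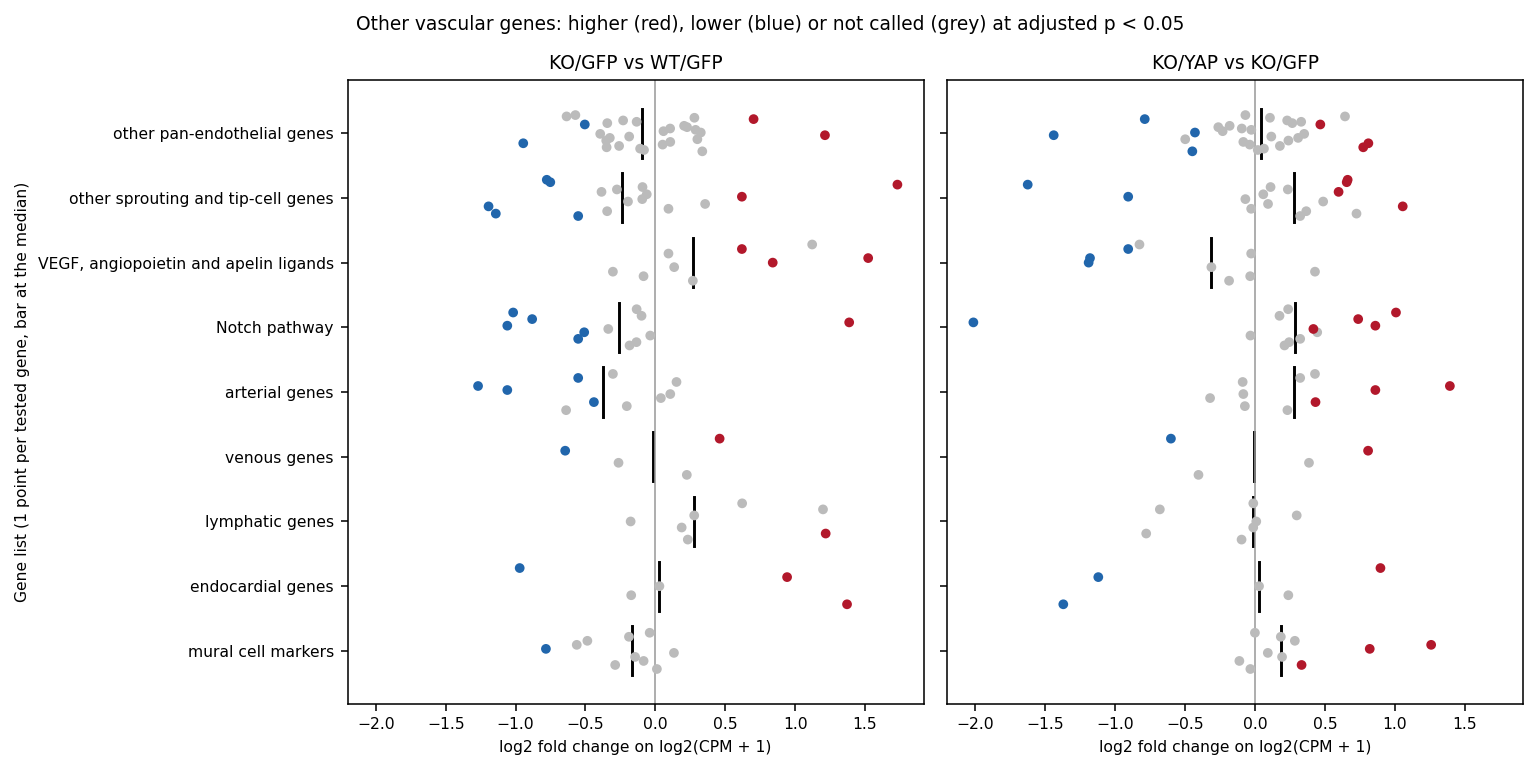
Log2 fold changes of the tested genes of 9 vascular lists in Xinβ KO/GFP against WT/GFP (left) and Xinβ KO/YAP against Xinβ KO/GFP (right), 1 point per gene, coloured where called by limma, with a bar at each list's median. Both panels use the Xinβ KO/GFP libraries, so their mirror image is partly built in. Arterial genes are called on the lower side alone at left and the higher side alone at right, while pan-endothelial and sprouting genes are called on both sides.

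Markers of other cells moved in the same comparisons, and their part in the results above was not tested. Of 10 fibroblast markers, 5 fell in Xinβ KO, 7 fell in Xinβ KO/GFP and 7 rose in Xinβ KO/YAP against Xinβ KO/GFP, with medians of -0.55, -0.75 and 0.88. Their summed level was 4785 to 5045 CPM in WT and 2611 to 3440.4 CPM in Xinβ KO hearts. *Lum*, for example, was at 128 ± 1.78 and 76.3 ± 6.61 CPM, and the collagen gene *Col3a1* at 2227 ± 48.4 and 1208 ± 240.4 CPM. In the injected comparisons *Dpt* changed by -1.13 and 1.23 and *Mfap5* by -0.97 and 1.12 on the log2 scale. Of the macrophage markers, 7 of 8 tested fell in Xinβ KO, 7 of 9 fell in Xinβ KO/GFP and 8 of 9 rose with YAP, with medians of -1.12, -1.23 and 1.15 and sums of 88.9 to 109.7 CPM in WT and 31.2 to 54.6 CPM in Xinβ KO hearts. Of these, *Cx3cr1* had the largest log2 fold changes, -2.30, -2.94 and 2.79, and its mean in Xinβ KO/GFP hearts was below 1 CPM. *Csf1r* (-1.43, -1.16 and 1.07), *Adgre1* (-1.30, -1.42 and 1.52) and *C1qa* (-1.06, -1.55 and 1.42) were also called in all 3. Of 10 mural cell markers 1, *Myh11*, fell in each knockout comparison, and 3 rose with YAP, *Acta2*, *Myh11* and *Rgs5* (medians -0.13, -0.17 and 0.19). Of 10 cardiomyocyte markers 2, *Tnnt2* and *Pln*, rose in both knockout comparisons and fell with YAP (medians 0.19, 0.04 and -0.12). Of the erythroid markers 0 of 6 tested were called in uninjected hearts by limma, edgeR or DESeq2, with 0 at an unadjusted p under 0.05 in limma and 1 in DESeq2, and 5 of 7 fell in Xinβ KO/GFP against WT/GFP, where WT/GFP replicate 4 had a sum of 8425 CPM and the other 3 between 3393 and 3533 CPM. Those that fell were *Alas2* (-1.14) and globin genes such as *Hbb-bs* (-1.33), *Hbb-bt* (-1.19) and *Hba-a2* (-1.18), whose near-identical copies make their separate values uncertain. With YAP 0 of 7 were called by any of these tools, and the medians were -0.34, -1.14 and 0.02. Of the hypoxia-induced genes, 4 of 14 tested rose in Xinβ KO, 5 of 15 rose in Xinβ KO/GFP and 6 of 15 fell with YAP, with medians of 0.36, 0.28 and -0.40. *Hif3a* was the largest of them, at 1.38 to 3.16 CPM in WT and 17.1 to 55.7 CPM in Xinβ KO hearts, and *Bnip3*, *Ddit4* and *Slc2a1* were also called in all 3. The summed level of the 8 general endothelial markers was 1756 to 1902 CPM in WT, 1273 to 1669 in Xinβ KO, 1585 to 1823 in WT/GFP, 1464 to 1556 in Xinβ KO/GFP, 1575 to 1747 in WT/YAP and 1620.1 to 1692 CPM in Xinβ KO/YAP hearts. It was below all WT libraries in every Xinβ KO heart and below all WT/GFP libraries in every Xinβ KO/GFP heart, with a smaller difference than in the fibroblast and macrophage sums. This separation rests in part on *Aplnr*, which is in the sum. The nearest injected libraries, Xinβ KO/GFP replicate 4 and WT/GFP replicate 3, had sums of 1556 and 1585 CPM, with *Aplnr* at 55.2 and 136 CPM. The sum of the 28 further pan-endothelial genes was at 2425 to 2843 CPM in WT and 2835 to 3545 CPM in Xinβ KO hearts, and at 2794 to 3005 CPM in WT/GFP and 2920.3 to 3758 CPM in Xinβ KO/GFP hearts, with overlap in both. A large share of that sum was *Fabp4*, at 785 ± 69.7 CPM in WT/GFP and 1290.2 ± 225 CPM in Xinβ KO/GFP hearts. Without it the other 27 genes summed to 1776 to 2157 CPM in WT, 1897 to 2102 in Xinβ KO, 2005 to 2141 in WT/GFP and 1899 to 2216 CPM in Xinβ KO/GFP hearts, and no test was run on these sums.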

How the data were processed

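Libraries were strand-specific and poly-A selected, read as 50 bp single ends for uninjected and 150 bp paired ends for injected hearts. Per the labels and the study's methods, the authors used cutadapt 2.3 for trimming, HISAT2 2.1.0 for alignment to GRCm38, StringTie 1.3.4 for assembly and quantification, edgeR 3.26.1 for CPM values and FastQC for read quality. Genes expressed in too few libraries had been removed. The authors deposited 1 table of CPM values for uninjected and 1 for injected hearts, and these are a signal of gene counts divided by an effective library size, as inferred from columns that sum to 942566 to 1134439. The low values are whole multiples of 1 read, which gave back reads that were whole within 0.05 of a read for at least 99.96% of values and library totals of 15015038 to 31154155. Counting error is therefore small for all members other than *Esm1*. Ensembl identifiers were matched to symbols for 15655 of 15667 and 15314 of 15327 genes.

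Genes above 1 CPM in at least 4 of the 8 uninjected or 8 of the 16 injected libraries were kept, and log2(CPM + 1) was fitted with limma 3.58.1 in R 4.3.3 (group means, empirical Bayes with trend), separately for the 8 uninjected and the 16 injected libraries, whose 4 groups share 1 estimate of spread. Adjusted p is Benjamini-Hochberg over all tested genes, 2-sided, with a threshold of 0.05. Alternatives were scaling by median ratio, quantile or library total, a pseudocount of 0.1, no filter or 1 CPM in every library, no trend, edgeR 4.0.16 (quasi-likelihood and exact tests) and DESeq2 1.42.0 on the recovered reads, the replicate number as a block, *Ddx3y* as a covariate, only the groups compared, and each library left out. The pipeline was tested on simulated data. Figures and tables used Python 3.11.15, pandas 2.3.3, numpy 2.4.6 and matplotlib 3.10.9.

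The 10 members and the 17 lists beside them were chosen with earlier results of these data known, so no list is independent evidence. Named were all members, *Xirp2*, *Yap1*, 11 set vascular genes (such as *Vegfa* and *Nos3*) and, of each list, up to 4 called genes with the smallest p over the 3 main comparisons. *Igfbp3*, *Ddit4*, *Ddx3y*, the sum without *Fabp4* and the platelet genes other than *Itgb3* were chosen after their values were seen, and 1 gene of that list is not reported here. Likeness was the root mean square difference of profiles centred within each table. Promoter sequences came from RefSeq (GRCm38.p6). Same-numbered libraries were not taken as pairs.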

Additional observations from a re-analysis of the deposited data

Results flagged for a closer look

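In 6 of the 60 sets of 4 libraries (10 genes in 6 groups), the gap from the highest or lowest library to its neighbour, as a share of the range, passed Dixon's 95% critical value, where chance gives about 3.0. *Pecam1* was at 256 CPM in uninjected Xinβ KO replicate 1 and at 298 to 302 CPM in the others. *Kdr* was at 317 CPM in WT/GFP replicate 3, with 359 to 365 CPM in the other WT/GFP hearts. *Tek* was at 98.0 CPM in WT/GFP replicate 1 and at 117 to 121 CPM in its group otherwise. *Vwf* was at 75.2 CPM in Xinβ KO/YAP replicate 1, against 42.2 to 47.9 CPM. *Apln* was at 73.0 CPM in WT replicate 3 against 45.9 to 47.9 CPM, and at 43.6 CPM in Xinβ KO replicate 4 against 5.24 to 10.9 CPM. Xinβ KO replicate 4 was also the Xinβ KO library with the highest cell division sum, 732 CPM, and the lowest *Ddx3y*, 3.68 CPM, and the part of either in the *Apln* value was not tested.

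The effect of YAP differed between genotypes, by the interaction term in limma, for *Kdr* (0.58, adjusted p = 0.0051) and *Aplnr* (1.07, adjusted p = 0.018). All 4 Xinβ KO/YAP hearts were above all 4 Xinβ KO/GFP hearts for both genes, while WT/YAP and WT/GFP overlapped.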

How the results depend on the processing

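The number of the 10 genes called was 4, 5, 4 and 2 in Xinβ KO against WT, Xinβ KO/GFP against WT/GFP, Xinβ KO/YAP against Xinβ KO/GFP and the interaction. With each library left out it ran from 2 to 6, 3 to 6, 3 to 6 and 2 to 3, and stayed 0 in the other 3 comparisons under every setting. It was 2 without WT replicate 1, and 3 in Xinβ KO/GFP against WT/GFP without WT/GFP replicate 4 or Xinβ KO/GFP replicate 1, with edgeR's exact test, and with only the groups compared. Library-total scaling gave 7 in Xinβ KO/YAP against Xinβ KO/GFP. The direction of *Pecam1* turned in uninjected hearts to -0.034 with quantile normalization and -0.066 with library-total scaling, which also gave 0.096 in Xinβ KO/YAP against Xinβ KO/GFP and 0.087 in the interaction. With a library left out *Pecam1* ran from -0.075 to 0.024, -0.066 to 0.017 and -0.079 to 0.020 in Xinβ KO/GFP against WT/GFP, Xinβ KO/YAP against Xinβ KO/GFP and the interaction, and *Esm1* from -0.28 to 0.012 in the first of these. The cause was not tested. Of all single-gene values, 821 kept direction and side of the threshold, 30 lost a call, 24 gained one and 14 turned.

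Over all genes, the count called in uninjected hearts was 1044, and 201 higher and 184 lower with the replicate number as a block, 1927 with *Ddx3y* as a covariate, 1955 with DESeq2 and 1594 with library-total scaling. On the recovered reads edgeR's quasi-likelihood test called 956, 1904 and 2103 genes in the first 3 comparisons, where limma called 1044, 1993 and 2156. With only the groups compared it was 930 in place of 1993 and 1208 in place of 2156 in the injected comparisons, and the interaction fell from 1104 to 707 with the block. With each library left out the count reached from 379, when WT replicate 1 was omitted, up to 2098, when Xinβ KO replicate 4 was, in uninjected hearts, where each of the 8 libraries moved it by over 1.5 times, 1262 to 2756 (lowest without Xinβ KO/GFP replicate 1 or 4) and 1480 to 2500 in the injected comparisons and 631 to 1474 in the interaction (lowest without WT/YAP replicate 4). Same-numbered libraries did not deviate together (correlations from -0.19 to 0.14, with at most 2 of 4 numbers closest to their own), and they were not taken as pairs. With 4 libraries a group, this cannot exclude a pairing. With the replicate block, members called were 3, 5 and 3, and *Kdr* in uninjected hearts had an adjusted p of 0.079 (limma). With 4 libraries a group, the wide intervals of *Apln* and *Vwf* and the few reads of *Esm1* limit what could be detected. Replicate pairs differed by more than sampling noise (chi-square per degree of freedom of 11.8 to 121 over 36 pairs).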
